A study of Nicotiana benthamiana with 12 samples.

Results

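The genes described here are the 141 of 40763 genes in the deposited table of Nicotiana benthamiana, a wild tobacco species, whose homology text begins with "40S ribosomal protein". Transcripts were counted by RNA sequencing in leaves of plants grown for 5 weeks in soil under long days. The 4 groups were polysome RNA of plants held for 1 h at 37 °C (heat polysome), polysome RNA of plants left at 23 °C (mock polysome), total RNA of heated plants (heat total) and total RNA of mock plants (mock total). The labels name no transgene or other agent, and each group has 3 libraries that the submitters call biological replicates. The libraries are numbered 2, 3 and 4 (mock polysome, heat total) or 5, 6 and 7 (heat polysome, mock total). What the numbers mark is not stated. Every comparison of 2 groups below sets the numbers 2 to 4 against 5 to 7, so its effect and any difference between these sets cannot be told apart. The same holds for the difference between the heat effects in polysome and total RNA. Whether a library came from 1 plant or a pool, and how polysomes were isolated, is not stated in the labels.

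The 40S subunit is the part of the cytosolic ribosome that binds the mRNA, finds the start codon and checks each codon against a tRNA. Its proteins are made in the cytosol, carried into the nucleolus and assembled there on the small-subunit rRNA. Plants carry several expressed gene copies for nearly every ribosomal protein, and the polysome loading of these mRNAs is known to shift with light, oxygen and temperature. RNA bound in polysomes is read as a proxy for mRNA under translation, since it is recovered with several ribosomes on it.

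The 141 genes named 23 proteins, when copies were grouped by the protein in the text and S0 was joined to SA, since all 6 genes of that kind have an SA protein as best match. Their best BLAST matches in the deposited annotation were all small-subunit ribosomal proteins. The homology text and the matches come from the same annotation, so this is not an independent check of the label. S8 had 15 genes, S4 had 12, S27 had 11 and S13 had 10, while S3, S9 and S11 had 2 each and S23 had 1. The proteins S2, S5, S14, S15, S16, S18, S20 and S29 are not analysed here, because no gene carried them in a text of this form, and the 5 genes for ubiquitin fused to S27a fall outside the rule. Of the 141 genes, 118 passed the filter on low counts, and the other 23, with 22 to 89 counts summed over all 12 libraries, were not tested as single genes. Copies of one protein are alike in sequence, and the authors' counting could have split or lost reads between them. Each result is therefore given for single genes and for the summed counts of each protein.

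Library totals were 10724854 to 14485118 counts. Levels are CPM, counts scaled to a common library size with TMM factors, and are not divided by transcript length, so levels are compared between libraries and not between genes. Plastid-genome-type transcripts stood apart in libraries 6 and 7 of mock total RNA, at 6835 and 6881 summed CPM, against 618 CPM in mock total library 5. They had 371 to 410 CPM in heat total, 976 to 1429 CPM in heat polysome and 867 to 2014 CPM in mock polysome RNA. The highest summed level of the 40S genes within a group was in library 2 of mock polysome RNA and in library 7 of mock total RNA. Leaf mesophyll markers (96 genes for chlorophyll-binding proteins, the Rubisco small chain and Rubisco activase, of which 0 were at the table's lowest count in all libraries) made up 303167 to 421765 CPM of heat polysome, 209649 to 292007 CPM of mock polysome, 118915 to 127404 CPM of heat total and 140540 to 151308 CPM of mock total RNA, by far the highest sum of the marker lists in every library.

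Summed over all 141 genes, 40S transcripts had 3227, 2949 and 2915 CPM in heat polysome RNA, against 4659, 3026 and 3781 CPM in mock polysome RNA. They had 1688, 1596 and 1614 CPM in heat total RNA, against 1887, 1781 and 2455 CPM in mock total RNA. All heat total libraries lay below all mock total libraries, and in polysome RNA the groups overlapped, because mock library 3 lay among the heat libraries. The polysome libraries were all above the total RNA libraries of their treatment. As a share of all counts, without TMM scaling, the 40S genes took 0.193 ± 0.00987% of heat polysome, 0.340 ± 0.0940% of mock polysome, 0.203 ± 0.00318% of heat total and 0.292 ± 0.0573% of mock total RNA (SD, n = 3 each). On that unscaled share, heat polysome lay below heat total RNA, so the order of the fractions depends on the scaling.

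**Figure D1:**
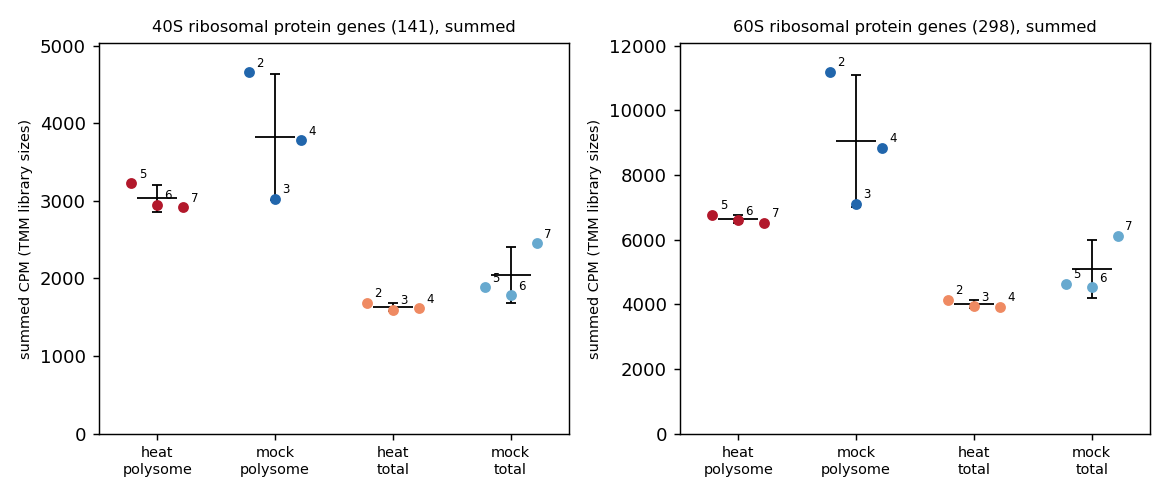
Summed level in CPM (vertical axis, TMM library sizes) of the 141 genes of 40S proteins (left) and the 298 genes of 60S proteins (right), in heat polysome, mock polysome, heat total and mock total RNA (horizontal axis). Each point is 1 library with its title number, and the bar gives the mean and SD of 3 libraries. The heat libraries lie close together, while mock polysome library 2 (4659 CPM of 40S genes) and mock total library 7 (2455 CPM) are the highest of their groups in both panels.

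In total RNA after heat, transcripts of 5 proteins fell and of 1 protein rose. S26, which lines the channel where the mRNA leaves the subunit, S24, S27, the entry-channel protein S30 and S25 fell by 0.51 to 0.66 on the log2 scale, and S3, which lies where the mRNA enters, rose by 0.46 (0.26, adjusted p = 0.17, with library totals in place of TMM). Among single genes 7 of 118 rose and 34 fell, that is 5.93% and 28.8%, against 25.7% and 28.3% of the 34325 genes tested. With copies summed, 4.35% of the 23 proteins rose and 21.7% fell, against 25.8% and 28.4% of all genes. With TMM, the shares that fell were thus near or below the background, and the shares that rose were below it. With library totals in place of TMM 2 of the 118 genes rose and 60 fell, against 20.2% and 34.8% of all genes, and the median of all genes moved to -0.28. The median log2 change was -0.39 over the 118 genes, against -0.08 over all genes tested. Only 3 of the 118 (2.54%) moved by more than 1 on the log2 scale, against 36.2% of all genes. In bulk leaf RNA, fewer cells of a type and less RNA per cell cannot be told apart.

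Of the proteins at the mRNA path, S3 had 22.9, 22.2 and 25.3 CPM in heat total RNA, against 16.6, 16.4 and 18.1 CPM in mock total RNA. The groups did not overlap, and the log2 change was 0.46 ± 0.15 (SE; adjusted p = 0.016, edgeR's quasi-likelihood test with Benjamini-Hochberg adjustment, as for every p given here). Both S3 genes rose, and the call for the sum was lost without heat library 4 (0.43, adjusted p = 0.053). S26 had 83.9, 82.8 and 72.9 CPM in heat total RNA, against 121.8, 115.9 and 141.4 CPM in mock total RNA, again with no overlap, and fell by 0.66 ± 0.16 (adjusted p = 0.0026). Its gene Niben101Scf02482g01018.1 fell by 1.11 ± 0.18, the largest fall of a 40S gene in this comparison (adjusted p = 8.1e-05), with 10.5, 10.8 and 8.40 CPM after heat, against 19.8, 20.1 and 24.0 CPM in mock leaves.

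S30 had 50.7, 43.2 and 44.4 CPM in heat total RNA, against 61.1, 50.8 and 86.9 CPM in mock total RNA, where library 7 was well above the others. Its change of -0.53 ± 0.20 (adjusted p = 0.036) was lost with most of the libraries left out in turn, most clearly without mock library 7 (-0.27, adjusted p = 0.25). S24, needed for maturation of the small-subunit rRNA in human cells, had 97.9, 91.6 and 108.3 CPM in heat and 140.1, 156.2 and 163.5 CPM in mock total RNA, with no overlap (-0.63 ± 0.17, adjusted p = 0.0051). S27 had 114.9, 99.9 and 96.6 CPM in heat and 156.4, 140.5 and 192.8 CPM in mock total RNA, also with no overlap (-0.66 ± 0.20, adjusted p = 0.011). Its call was lost without mock library 7 (-0.51, adjusted p = 0.054) and without heat library 3 or 4 (-0.60 and -0.58, adjusted p = 0.051 and 0.057). S25 had 84.0, 73.8 and 76.4 CPM in heat and 93.2, 98.0 and 141.6 CPM in mock total RNA, with no overlap (-0.51 ± 0.19, adjusted p = 0.036). The S25 call was lost in some of the other fits given at the end.

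The assembly protein S8, with 10 tested genes, showed both directions. Niben101Scf01752g10011.1 rose, with 17.0, 19.3 and 17.8 CPM in heat total RNA, against 9.01, 11.4 and 13.0 CPM in mock total RNA (0.70 ± 0.16, adjusted p = 0.0016). Niben101Scf04551g01013.1 fell, with 8.35, 8.49 and 6.94 CPM in heat total RNA, against 13.4, 16.4 and 18.6 CPM in mock total RNA (-1.02 ± 0.17, adjusted p = 0.0001). In all, 6 S8 genes fell and 1 rose, the groups of both named genes did not overlap, and the sum over copies was -0.35 ± 0.15 (adjusted p = 0.056).

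S7, another assembly protein, had 1 gene past the threshold, Niben101Scf04640g04002.1, with 7.49, 7.41 and 7.49 CPM in heat total RNA, against 14.3, 12.5 and 15.1 CPM in mock total RNA (-0.90 ± 0.15, adjusted p = 0.00013). SA, which is needed for small-subunit rRNA maturation and whose human counterpart is also called the laminin receptor precursor, had 3 genes that rose and 1 that fell. Of these, Niben101Scf02003g01002.1 had 18.8, 21.6 and 23.1 CPM in heat total RNA, against 12.4, 10.7 and 17.4 CPM in mock total RNA (0.65 ± 0.21, adjusted p = 0.016). That call was lost without heat library 4 (0.61, adjusted p = 0.053), without mock library 6 (0.53, adjusted p = 0.073) and with library totals (0.45, adjusted p = 0.083). S6, the target of S6 kinase in the TOR pathway, moved by -0.10 ± 0.14 as a sum (adjusted p = 0.58). Within it Niben101Scf00360g01005.1 rose, with 32.5, 31.3 and 30.8 CPM in heat total RNA, against 25.1, 22.1 and 25.4 CPM in mock total RNA (0.38 ± 0.14, adjusted p = 0.026). Its call was lost without heat library 2 (adjusted p = 0.062), without mock library 6 (adjusted p = 0.089) and with library totals (0.18, adjusted p = 0.29). Copies of one protein were called in opposite directions in 3 of the 21 proteins with more than 1 tested gene.

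The count of genes that fell in total RNA changed with the libraries used. It was 34 with all libraries and 15 without mock library 7, and the count of proteins that fell was 5 and 2. With each of the 12 libraries left out in turn 15 to 40 genes fell. A fit with fewer libraries has less power for any gene, and the shares of all genes in these fits were not compared. The median of the 118 genes was -0.39 with all libraries, -0.18 without mock library 7 and -0.21 without mock libraries 6 and 7. Markers of dividing cells were 153 genes whose text names histones (histone methyltransferases among them), A and B cyclins, replication proteins or KNOTTED. Their sum moved the same way, with 2007 to 2146 CPM in heat total RNA and 3081 to 3963 CPM in mock total RNA, and was highest in mock library 7. Of 128 tested 82 fell and 6 rose, against 28.3% and 25.7% of all genes. The rise with the smallest adjusted p was that of a KNOTTED-like gene (log2 change 2.32). The part of these markers in the change of the 40S genes was not tested.

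In polysome RNA after heat, transcripts of 10 of the 23 proteins fell and of 4 rose. S11, S30, S24, S12, S28, S21, S13, S27, S19 and S7 fell, and S3, S3a, SA and S23 rose. Among single genes 41 of 118 fell (34.7%) and 14 rose (11.9%), against 28.0% and 28.1% of all genes tested and 28.0% in each direction with copies summed. The median log2 change was -0.28, against -0.06 over all genes. With library totals in place of TMM these medians were -0.76 and -0.53, and 72 of the 118 genes fell and 3 rose. Moves of more than 1 on the log2 scale were seen in 19 of the 118 genes (16.1%), against 42.2% of all genes.

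Of the proteins at the mRNA path, S3 had 46.7, 39.2 and 39.5 CPM in heat polysome RNA, against 30.2, 21.2 and 26.8 CPM in mock polysome RNA. The groups did not overlap (0.68 ± 0.15, adjusted p = 0.0012), and both S3 genes rose. With library totals in place of TMM the S3 value was 0.20 (adjusted p = 0.29) and that of S3a, described next, was 0.17 (adjusted p = 0.35). The gene with most of its counts, Niben101Scf02790g05015.1, changed by 0.67 ± 0.15 (adjusted p = 0.0014), or by 0.18 with library totals (adjusted p = 0.37). S3a, on the exit side of the subunit beside the binding place of initiation factor eIF3, had 167.6, 134.8 and 135.0 CPM in heat polysome RNA, against 99.2, 90.1 and 86.9 CPM in mock polysome RNA (0.66 ± 0.15, adjusted p = 0.0016). Of its 6 genes 4 rose, and none fell.

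SA also lies on the exit side, and had 141.8, 117.1 and 112.4 CPM in heat polysome RNA, against 109.9, 89.1 and 80.4 CPM in mock polysome RNA. Its heat libraries were all higher, but the change of 0.41 ± 0.16 (adjusted p = 0.043) missed the threshold in 7 of 12 fits with a library left out (0.31 to 0.55, adjusted p up to 0.14) and was -0.09 with library totals in place of TMM. The decoding-centre protein S23 was measured by 1 gene at a low level, with 1.48, 2.74 and 1.49 CPM in heat polysome RNA, against 0.381, 1.53 and 0.672 CPM in mock polysome RNA. These values overlap, and the call (1.09 ± 0.45, adjusted p = 0.049) was lost in 9 of 12 fits with a library left out, among them those without heat library 6 (0.74, adjusted p = 0.24) and without mock library 2 (0.74, adjusted p = 0.17).

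S30 had 149.6, 158.8 and 166.9 CPM in heat polysome RNA, against 368.0, 227.0 and 281.6 CPM in mock polysome RNA. All heat libraries were lower, as were 4 of its 5 tested genes by the test, and the sum fell by 0.89 ± 0.20 (adjusted p = 0.0014). S28, at the exit channel beside S26, had 128.0, 115.3 and 116.7 CPM in heat polysome RNA, against 262.0, 140.5 and 207.9 CPM in mock polysome RNA (-0.76 ± 0.19, adjusted p = 0.0034). Its gene Niben101Scf07137g00005.1 fell with little spread, to 14.3, 14.3 and 12.8 CPM in heat polysome RNA, against 28.7, 27.5 and 29.4 CPM in mock polysome RNA (-1.05 ± 0.14, adjusted p = 1.1e-05).

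The sharpest fall was that of S11, an rRNA-binding protein of the subunit's body. It had 3.07, 5.28 and 3.24 CPM in heat polysome RNA, against 12.8, 11.5 and 9.85 CPM in mock polysome RNA, and its log2 change was -1.55 ± 0.22 (adjusted p = 2e-05). Of its 2 genes 1 passed. Niben101Scf05857g01001.1 had 1.84, 3.06 and 1.24 CPM in heat polysome RNA, against 9.04, 8.71 and 7.72 CPM in mock polysome RNA (-2.02 ± 0.28, adjusted p = 1.4e-05). The other, Niben101Scf04664g03006.1, had 1.23, 2.22 and 1.99 CPM in heat polysome RNA, against 3.81, 2.75 and 2.13 CPM in mock polysome RNA, overlapping groups (-0.67, adjusted p = 0.11).

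S13, which makes a contact with the large subunit, had 116.3, 109.0 and 107.2 CPM in heat polysome RNA, against 205.3, 149.1 and 181.9 CPM in mock polysome RNA (-0.69 ± 0.17, adjusted p = 0.0031). Its gene Niben101Scf05317g00004.1 had 23.9, 23.1 and 20.9 CPM in heat polysome RNA, against 61.9, 44.4 and 54.4 CPM in mock polysome RNA (-1.24 ± 0.16, adjusted p = 9.9e-06). S24 had 145.5, 189.2 and 213.5 CPM in heat polysome RNA, against 361.2, 260.1 and 343.2 CPM in mock polysome RNA, and 6 of its 7 genes fell (-0.82 ± 0.17, adjusted p = 0.0007). Neither S13 nor S24 overlapped between heat and mock. The remaining calls were of a similar size. S27, with 235.7, 216.2 and 208.7 CPM in heat and 469.9, 248.4 and 347.7 CPM in mock polysome RNA, changed by -0.69 ± 0.20 (adjusted p = 0.0073).

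S21, which lies beside SA, had 139.8, 144.7 and 149.0 CPM in heat polysome RNA, against 303.7, 172.9 and 227.2 CPM in mock polysome RNA, and all 3 tested genes fell (-0.70 ± 0.20, adjusted p = 0.0080). S12, in the beak of the subunit, had 77.0, 66.3 and 61.7 CPM in heat polysome RNA, against 159.4, 83.2 and 106.8 CPM in mock polysome RNA (-0.77 ± 0.23, adjusted p = 0.0093). S19, which is mutated in Diamond-Blackfan anaemia in humans, had 144.6, 142.5 and 127.5 CPM in heat polysome RNA, against 265.8, 174.1 and 224.8 CPM in mock polysome RNA (-0.68 ± 0.18, adjusted p = 0.0045). In all of these the heat libraries lay together below the mock libraries, of which library 2 was the highest. S7 had the smallest of the falls that passed (-0.48 ± 0.16, adjusted p = 0.022).

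The other 9 proteins did not pass in polysome RNA. Their log2 changes were -0.72 for S15a, which was measured at 0.984 to 3.04 CPM in polysome RNA, and -0.31 to 0.29 for S4, S6, S8, S9, S10, S17, S25 and S26. S10 had 272.6, 244.2 and 231.2 CPM in heat polysome RNA, against 322.9, 199.7 and 257.3 CPM in mock polysome RNA, and S9 had 62.8, 56.3 and 62.4 CPM in heat polysome RNA, against 69.2, 34.4 and 45.0 CPM in mock polysome RNA. In both proteins the mock libraries spanned the heat libraries.

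Single genes varied least between heat libraries. The median coefficient of variation of the 118 genes was 13.4% in heat polysome, 22.7% in mock polysome, 8.33% in heat total and 21.1% in mock total RNA, against 20.5%, 23.9%, 10.8% and 17.1% over all genes tested. In polysome RNA, all heat libraries lay below all mock libraries in 41 of the 118 genes (34.7%, against 28.6% of all genes) and above them in 13, against 29.2% of all genes. In total RNA they lay below in 53 (44.9%, against 34.3% of all genes) and above in 10 (8.47%, against 32.2%).

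Within S4, a protein that binds the small-subunit rRNA, 1 of 8 tested genes rose in polysome RNA. Niben101Scf17473g00009.1 had 31.2, 17.0 and 14.7 CPM in heat polysome RNA, against 8.28, 4.05 and 6.04 CPM in mock polysome RNA (1.78 ± 0.29, adjusted p = 7.9e-05). The S4 sum did not pass the threshold, at 423.7, 314.3 and 314.8 CPM in heat polysome RNA and 410.9, 284.3 and 351.8 CPM in mock polysome RNA (0.01 ± 0.18, adjusted p = 0.98). The S6 gene Niben101Ctg12179g00003.1 likewise rose (1.90 ± 0.46, adjusted p = 0.0024), while the S6 sum moved by -0.17 ± 0.14 (adjusted p = 0.30).

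The calls in polysome RNA changed less with single libraries than those in total RNA. Between 32 and 50 genes fell, and 11 to 20 rose, with each of the 12 libraries left out in turn. Dividing-cell markers had 5622 to 6071 CPM in heat and 4928 to 8427 CPM in mock polysome RNA and were highest in mock library 2, the library with the highest 40S sum. The groups overlapped in this sum, but of 128 tested marker genes 63 fell and 12 rose, against 28.0% and 28.1% of all genes. Their median log2 change was -0.97. Epidermis and guard cell markers (68 genes) had 7035 to 9312 CPM in heat and 8628 to 18707 CPM in mock polysome RNA, and vascular markers (7 genes) 117 to 177 CPM and 62.4 to 85.7 CPM. Of 56 tested epidermis and guard cell genes 14 fell and 15 rose, and of 6 tested vascular genes 0 fell and 3 rose. The part of all these markers in the 40S results was not tested.

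**Figure D2:**
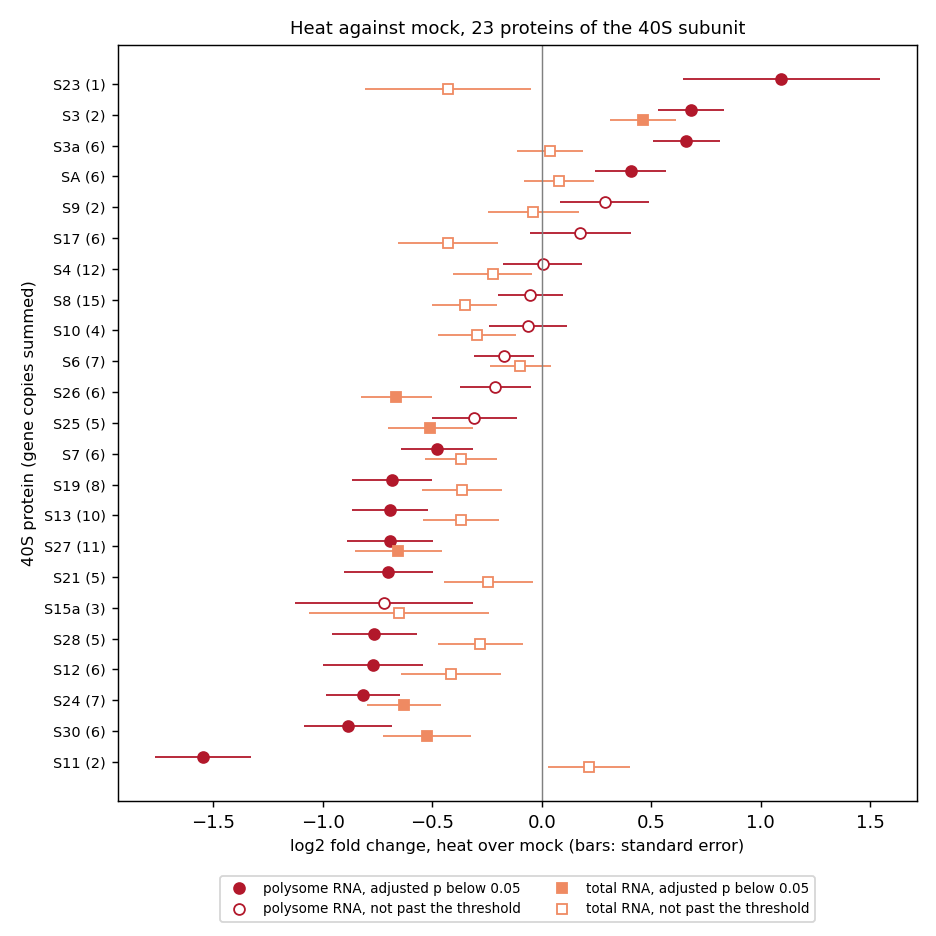
Log2 fold change, heat over mock (horizontal axis), of the summed copies of each of 23 proteins (vertical axis, number of genes in brackets), in polysome RNA (circles) and total RNA (squares). Bars are standard errors and filled symbols have an adjusted p below 0.05. S3 lies right of 0 in both fractions (also at 0.20 and 0.26 with library totals in place of TMM, there not past the threshold), SA lies at 0.41 in polysome RNA (-0.09 with library totals), and S11 is the lowest circle at -1.55 with its square at 0.22.

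Averaged over both fractions, the heat change passed the threshold downwards for 13 proteins and upwards for S3 and S3a. With library totals in place of TMM, S3 stood at 0.23 (adjusted p = 0.080) and S3a at 0.0032 (adjusted p = 0.98). Of the 118 genes 58 fell and 13 rose (49.2% fell), against 34.4% and 31.3% of all genes tested, or 34.5% and 31.3% with copies summed. S24 had the lowest protein value (-0.72 ± 0.12, adjusted p = 6.4e-05), followed by S30 (-0.71 ± 0.14, adjusted p = 0.00039) and S15a (-0.69 ± 0.29, adjusted p = 0.048), while S3 had the highest (0.57 ± 0.11, adjusted p = 0.00019). S24 did not differ from its neighbours beyond the standard errors. Among single genes, the S24 gene Niben101Scf06819g02006.1 changed by -1.25 ± 0.15 (adjusted p = 2.5e-06) and the S13 gene Niben101Scf04703g11023.1 by -1.32 ± 0.16 (adjusted p = 3e-06). The S3a gene Niben101Scf01182g01006.1 changed by 0.59 ± 0.15 (adjusted p = 0.0026), or by 0.24 with library totals (adjusted p = 0.17).

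The next comparison asked whether heat changed polysome RNA of a gene by more or less than its total RNA, the translational efficiency that the series is named for. It is the log2 change in polysome RNA minus that in total RNA, tested as an interaction. Of the 118 genes 10 were higher and 8 lower on this measure (8.47% and 6.78%), against 10.2% and 8.42% of all genes tested, or 10.2% and 8.50% with copies summed. The median was 0.07 over the 118 genes and 0.07 over all genes. Of the 23 proteins only S11 passed the threshold. The shares and the median are thus near the background.

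S11 changed by -1.76 ± 0.29 on this measure (adjusted p = 0.0012). It had 11.8, 11.7 and 12.9 CPM in heat total RNA, against 12.3, 10.1 and 8.97 CPM in mock total RNA, overlapping groups, while its polysome groups stood apart. Its gene Niben101Scf05857g01001.1 had 10.2, 10.6 and 11.3 CPM in heat total RNA, against 10.7, 8.45 and 6.41 CPM in mock total RNA, and its change in efficiency was -2.35 ± 0.35 (adjusted p = 0.00071). The other S11 gene stood at -0.26 ± 0.48 (adjusted p = 0.76). With any 1 library left out the value for S11 was -2.08 to -1.63. Of the other genes that passed, the S28 gene Niben101Scf07137g00005.1 was lowest, with 10.2, 9.63 and 9.26 CPM in heat total RNA, against 9.07, 7.57 and 9.35 CPM in mock total RNA (-1.21 ± 0.20, adjusted p = 0.0011).

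SA had genes in both directions. Niben101Scf02353g02004.1 had 11.8, 14.1 and 12.1 CPM in heat polysome RNA, against 17.2, 24.3 and 16.01 CPM in mock polysome RNA. In total RNA it had 18.6, 20.0 and 19.3 CPM after heat, against 14.7, 11.3 and 15.5 CPM in mock leaves. The groups overlapped in neither fraction and moved in opposite directions (-1.08 ± 0.25, adjusted p = 0.0084), a call that was lost without mock total libraries 6 and 7 (adjusted p = 0.062). Its sister gene Niben101Scf00338g08013.1 was higher on this measure (0.96 ± 0.26, adjusted p = 0.020), with 51.8, 41.0 and 40.1 CPM in heat polysome RNA, against 33.1, 22.4 and 20.1 CPM in mock polysome RNA.

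The highest values belonged to single genes of S6 and S4. The S6 gene Niben101Ctg12179g00003.1 had 4.18, 2.43 and 2.49 CPM in heat polysome RNA, against 1.05, 0.611 and 0.784 CPM in mock polysome RNA. In total RNA it had 2.06, 1.39 and 2.01 CPM after heat, against 3.17, 1.53 and 5.06 CPM in mock leaves, and its change in efficiency was 2.72 ± 0.59 (adjusted p = 0.0061). The S4 gene Niben101Scf17473g00009.1 had 16.6, 16.2 and 16.5 CPM in heat total RNA, against 26.2, 19.0 and 29.5 CPM in mock total RNA (2.38 ± 0.39, adjusted p = 0.0011). For both genes the polysome groups stood apart and polysome RNA was high after heat, and with each library left out in turn their values were 2.25 to 3.06 (S6) and 1.97 to 2.63 (S4), all past the threshold.

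The S3a gene with most of that protein's counts, Niben101Scf05084g00006.1, had 72.2, 66.9 and 58.5 CPM in heat polysome RNA, against 36.4, 33.8 and 37.6 CPM in mock polysome RNA. Its total RNA overlapped between heat (45.1, 46.6 and 46.2 CPM) and mock (46.8, 46.0 and 60.3 CPM), which gave 1.02 ± 0.20 (adjusted p = 0.0032). The S3a sum was at 0.62 ± 0.21 (adjusted p = 0.053). The S8 genes went both ways here too, with 2 higher and 2 lower, as did the S7 genes, with 1 each. The number of 40S genes past the threshold depended on single mock libraries, with 19 higher without mock polysome library 2 and 13 lower without mock total library 7.

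**Figure D3:**
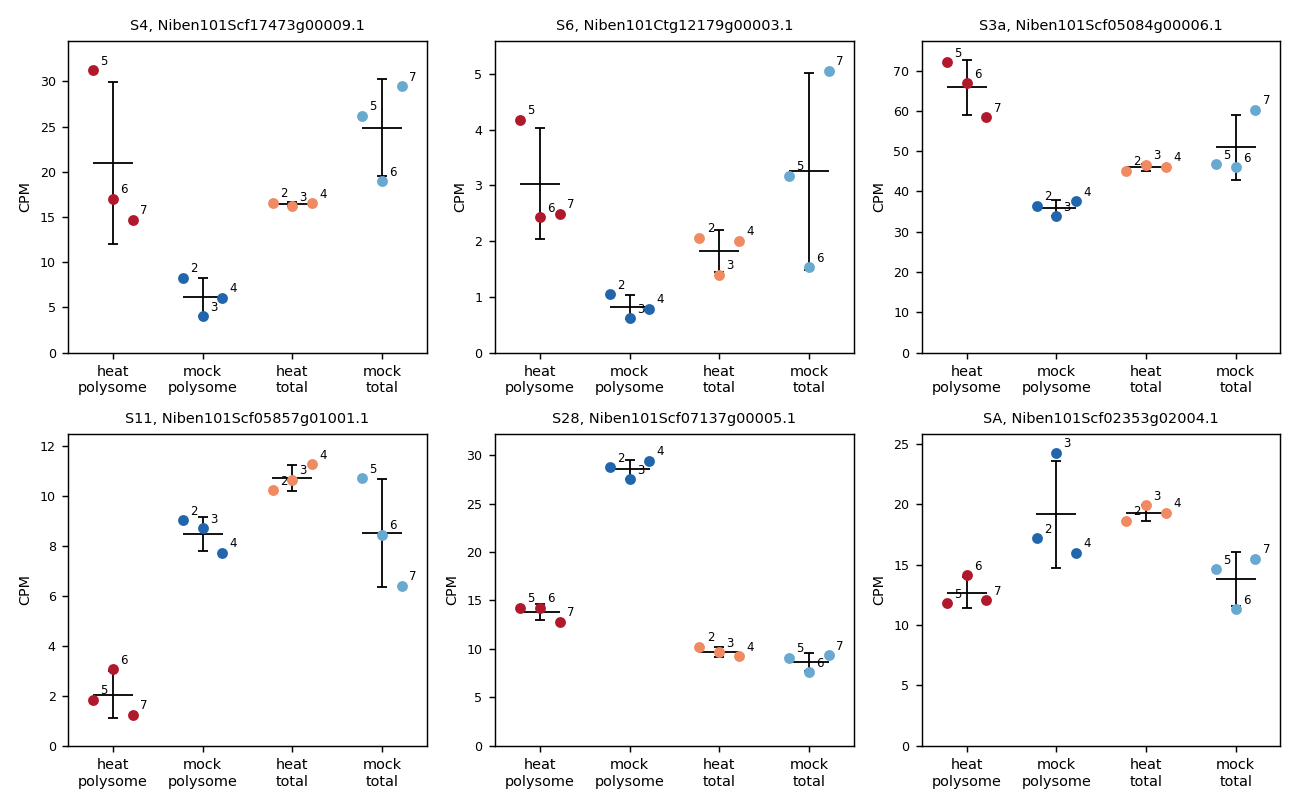
CPM (vertical axis) in each library of the 6 genes with the smallest adjusted p for the heat effect on translation efficiency, 3 higher (top) and 3 lower (bottom), by group (horizontal axis). Points carry the library's title number and bars give the mean and SD of 3 libraries. The S11 gene lies at 1.24 to 3.06 CPM in heat polysome RNA, against 7.72 to 9.04 CPM in mock polysome RNA, and the S4 gene lies at 14.7 to 31.2 CPM, against 4.05 to 8.28 CPM.

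**Figure D4:**
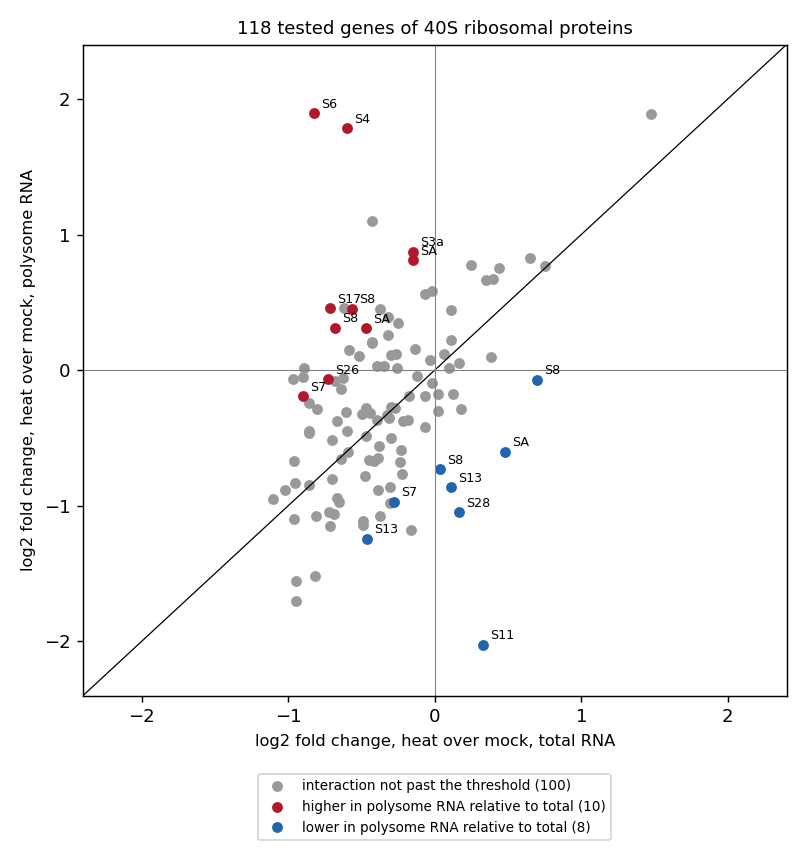
Log2 fold change, heat over mock, in polysome RNA (vertical axis) against that in total RNA (horizontal axis) for the 118 tested genes. Each point is 1 gene, the diagonal marks equal changes, and colour marks the 10 genes that were higher and the 8 that were lower in polysome RNA relative to total RNA (interaction, adjusted p below 0.05). The S6 and S4 genes lie at the upper left and the S11 gene at the bottom, while most points lie between -1 and 0.5 on both axes.

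Polysome RNA was then compared with total RNA within each treatment, which asks how strongly a transcript is represented among ribosome-bound RNA. In heated leaves 17 proteins were higher in polysome RNA and 1, S11, was lower. In mock leaves 16 were higher and S3a and S23 were lower. Of the 118 genes 73 were higher and 7 lower in heat (61.9% and 5.93%), against 30.8% and 28.4% of all genes tested, or 30.7% and 28.5% with copies summed. In mock leaves 64 were higher and 10 lower (54.2% and 8.47%), against 27.0% and 27.2% of all genes tested. This was not particular to the 40S genes. Of 263 tested genes of 60S proteins 58.2% were higher and 8.37% lower in heat, and 60.1% and 10.3% in mock leaves. Of 159 tested genes of 30S-type ribosomal proteins, of plastids and mitochondria among others, 61% were higher and 5.03% lower in heat. In mock leaves these shares were 52.2% and 11.9%. With library totals in place of TMM the median of the 118 genes moved to -0.11 in heat (15 higher, 30 lower) and 0.13 in mock leaves (26 higher, 29 lower), so "higher" holds relative to other genes. The median of all genes moved too, to -0.89 and -0.69, and the 40S genes stayed 0.78 and 0.82 above it, against 0.79 and 0.83 with TMM.

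S30 had the highest value of the 23 proteins in both treatments. It had 149.6, 158.8 and 166.9 CPM in heat polysome RNA, against 50.7, 43.2 and 44.4 CPM in heat total RNA, a difference of 1.78 ± 0.21 on the log2 scale (adjusted p = 2.4e-06). In mock leaves it had 368.0, 227.0 and 281.6 CPM in polysome RNA, against 61.1, 50.8 and 86.9 CPM in total RNA (2.14 ± 0.21, adjusted p = 7e-07). All 5 tested S30 genes were higher in polysome RNA in both treatments, among them Niben101Scf05845g03012.1 in heat (2.49 ± 0.23, adjusted p = 3.2e-07) and Niben101Scf01927g09005.1 in mock leaves (2.70 ± 0.19, adjusted p = 4.9e-08). With library totals only, S30 was still higher in polysome RNA, by 0.82 in heat and 1.46 in mock leaves.

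The proteins next in order were S9, S21, S17 and S10 in heat, and S21, S28, S9 and S6 in mock leaves. S9, at the entry of the mRNA channel, had 62.8, 56.3 and 62.4 CPM in heat polysome RNA, against 22.4, 22.2 and 17.8 CPM in heat total RNA (1.54 ± 0.21, adjusted p = 1.2e-05). S21 had 303.7, 172.9 and 227.2 CPM in mock polysome RNA, against 49.5, 49.6 and 78.4 CPM in mock total RNA (1.99 ± 0.21, adjusted p = 1.6e-06), and 1.53 ± 0.21 in heat (adjusted p = 1.3e-05). S6 stood at 1.07 ± 0.14 in heat (adjusted p = 8.5e-06; 0.11, adjusted p = 0.53, with library totals) and 1.15 ± 0.14 in mock leaves (adjusted p = 6.4e-06). S9 and S21 in heat differed from each other by less than their standard errors.

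The lower end held S11, S3a and S23. S11 had 3.07, 5.28 and 3.24 CPM in heat polysome RNA, against 11.8, 11.7 and 12.9 CPM in heat total RNA (-1.64 ± 0.22, adjusted p = 9e-06). In mock leaves its groups overlapped, with 12.8, 11.5 and 9.85 CPM in polysome RNA, against 12.3, 10.1 and 8.97 CPM in total RNA (0.13 ± 0.19, adjusted p = 0.60). S3a had 99.2, 90.1 and 86.9 CPM in mock polysome RNA, against 113.4, 120.5 and 156.0 CPM in mock total RNA (-0.50 ± 0.15, adjusted p = 0.012), and 5 of its 6 genes were lower. That call was lost without mock total library 7 (-0.34, adjusted p = 0.066). In heat S3a was not past the threshold (0.13 ± 0.15, adjusted p = 0.49). S23 was lower in mock polysome RNA (-1.25 ± 0.42, adjusted p = 0.021), a call that was lost without mock polysome library 2 or 4 and without mock total library 6 or 7 (-1.23 to -0.89, adjusted p = 0.050 to 0.087).

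Copies of one protein stood at opposite ends in 5 proteins in heat and 4 in mock leaves, of 21 with more than 1 tested gene. Of the S7 genes in heat, Niben101Scf04640g04002.1 had 26.6, 30.2 and 24.4 CPM in polysome RNA, against 7.49, 7.41 and 7.49 CPM in total RNA (1.86 ± 0.16, adjusted p = 1e-07). Niben101Scf05545g00003.1 had 6.15, 7.18 and 7.35 CPM in polysome RNA, against 22.4, 21.7 and 20.9 CPM in total RNA (-1.65 ± 0.17, adjusted p = 7.3e-07). Neither gene's libraries overlapped, and in mock leaves the same genes stood at 1.15 ± 0.15 (adjusted p = 1.1e-05) and -0.96 ± 0.16 (adjusted p = 0.0001). The S8 gene Niben101Scf01752g10011.1, with 5.90, 6.33 and 5.60 CPM in heat polysome RNA, against 17.0, 19.3 and 17.8 CPM in heat total RNA, was lower in polysome RNA in heat (-1.60 ± 0.17, adjusted p = 1.4e-06) and in mock leaves (-0.83 ± 0.17, adjusted p = 0.00076). The mock call was lost without mock total libraries 6 and 7 (-0.53, adjusted p = 0.081).

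**Figure D5:**
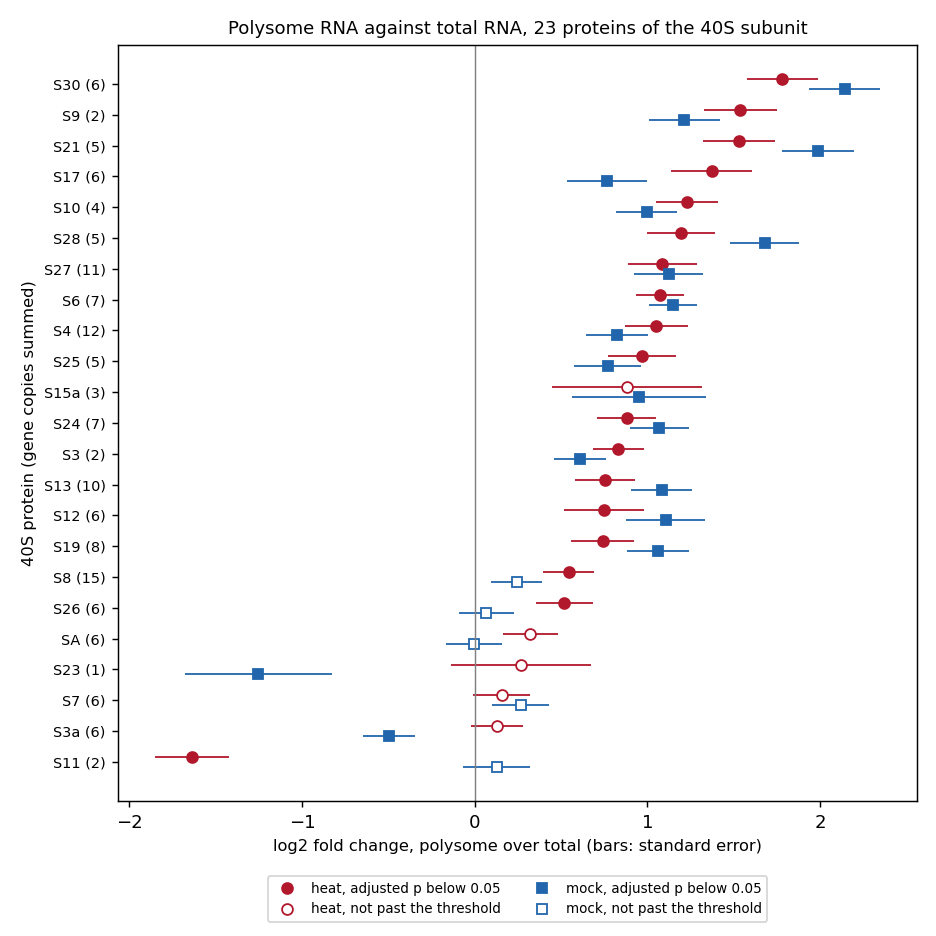
Log2 fold change, polysome over total RNA (horizontal axis), of the summed copies of 23 proteins (vertical axis, number of genes in brackets), in heat (circles) and mock leaves (squares). Bars are standard errors and filled symbols have an adjusted p below 0.05. Most proteins lie between 0.5 and 2 in both treatments, S11 lies at -1.64 in heat and 0.13 in mock leaves, and S23 at 0.27 and -1.25. With library totals in place of TMM the values lie further left, and 3 proteins are higher and 6 lower in heat, 4 and 6 in mock leaves.

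The 6 genes with the highest mean CPM over all libraries, a level not divided by length, belonged to S24, S10, S27 (2 genes), S4 and S21, and all 6 were higher in polysome than in total RNA in both treatments with TMM. With library totals the S24 gene and an S27 gene stood at -0.18 and -0.20 in heat, the other S27 gene and the S4 gene did not pass there, and 3 of the 6 did not pass in mock leaves. The S10 gene Niben101Scf00369g07017.1 had the same difference in each, 1.44 ± 0.18 in heat (adjusted p = 6.8e-06) and 1.44 ± 0.18 in mock leaves (adjusted p = 9.4e-06). S10 is a protein that is marked with ubiquitin when ribosomes stall, as known from mammals. The S24 gene Niben101Scf11383g00015.1 had 64.2, 79.6 and 112 CPM in heat polysome RNA, against 180, 133 and 179 CPM in mock polysome RNA (-0.94 ± 0.21, adjusted p = 0.0011). The S4 gene Niben101Scf00288g16005.1 had 81.9, 71.8 and 67.8 CPM in heat polysome RNA, against 90.5, 75.8 and 86.5 CPM in mock polysome RNA, overlapping groups (-0.19 ± 0.14, adjusted p = 0.24). The tested gene with the lowest mean CPM was Niben101Scf01998g00005.1 of S7, at 0.224 to 0.856 CPM, and it passed in none of the comparisons.

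Other genes of the ribosome and of translation are set beside the 40S genes by counts. Of all genes tested 25.7% rose and 28.3% fell in total RNA, and 28.1% rose and 28.0% fell in polysome RNA. Of 263 tested genes of 60S proteins 10 rose and 104 fell in total RNA (3.8% and 39.5%, median log2 change -0.43). In polysome RNA 27 rose and 106 fell (10.3% and 40.3%, median -0.41). Their sum was 6771, 6597 and 6533 CPM in heat polysome RNA, against 11197, 7112 and 8845 CPM in mock polysome RNA, with the same library highest as for the 40S genes. Of the 5 ubiquitin-S27a fusion genes 2 rose and 1 fell in each fraction. Of 99 tested genes for small-subunit assembly and nucleolar rRNA processing 25 rose and 13 fell in total RNA (25.3% and 13.1%). In polysome RNA 21 rose and 30 fell (21.2% and 30.3%).

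Of 106 tested genes for translation initiation factors 52 rose and 8 fell after heat in total RNA (49.1% and 7.55%). In polysome RNA 53 rose and 13 fell (50% and 12.3%), and the median log2 change was 0.46 in both. Of 39 elongation factor genes 8 rose and 5 fell in total RNA (20.5% and 12.8%), and 17 rose and 7 fell in polysome RNA (43.6% and 17.9%). Of 75 genes for poly(A)-binding proteins 19 rose and 12 fell in total RNA (25.3% and 16%). In polysome RNA 24 rose and 22 fell (32% and 29.3%). Of 25 genes whose text names a G-protein beta-like protein, the text that also covers the 40S-bound scaffold RACK1, 3 rose and 8 fell in total RNA, and 3 rose and 4 fell in polysome RNA. Of 9 genes for TOR, its partners and S6 kinases, 3 rose and 1 fell in total RNA and 1 rose and 4 fell in polysome RNA. Ribosomal proteins of the 30S type, of plastids and mitochondria among others, fell in 67 and rose in 5 of 159 tested genes in total RNA (42.1% and 3.14%). In polysome RNA they fell in 41 and rose in 28 (25.8% and 17.6%).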

How the data were processed

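RNA of 12 leaf libraries was sequenced, and 1 deposited table gives whole-number counts per gene and library with an annotation text per gene. These counts were made by the authors with cutadapt, HISAT2 and HTSeq 0.11.0, per the submitters' processing notes, which also name DESeq. The genome build and the strand setting are not given in the sources used here, so reads of near-identical copies could be split or lost. The lowest count in the table is 1, so a gene without reads cannot be recognised. The notes do not describe how polysome RNA was isolated. Of the table, 2 emptied lines are not analysed here.

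Counts were tested as deposited with edgeR 4.0.16 under R 4.3.3. Genes were kept by filterByExpr (minimum count 10) and libraries scaled by TMM. The model had 1 mean per group over all 12 libraries, and the quasi-likelihood test was adjusted by Benjamini-Hochberg over the 34325 genes tested, with a threshold of 0.05. Standard errors are the log2 change divided by the root of the F value. For proteins, counts of all copies were summed and the table of 34230 features was fitted again. The script was tested on simulated data. Groups follow the labels' treatment and RNA fraction. Title numbers are shared across groups only between libraries that differ in both treatment and fraction, so no single comparison is paired, and the correlation of their deviations was -0.058 to 0.007. Nothing beyond the word "biological" says that replicates came from separate plants, and p-values measure the spread between these samples. Counting error of the library totals given is small beside that spread, and no pair of replicates agreed within counting noise.

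Named genes were the 3 with the smallest adjusted p in each direction and comparison, and the 6 highest and 1 lowest in mean CPM. Named proteins were the 4 with the smallest adjusted p in each direction and comparison, those with the largest and smallest log2 change, and the 4 most abundant. Other genes and proteins in the text were chosen after their values were seen. The members and all 16 lists were chosen with earlier results of these data known. Alternatives were DESeq2 1.42.0, limma-voom (limma 3.58.1), RLE scaling, a filter at a mean of 5 CPM or none, 1 subtracted from every count, fewer libraries, a replicate block and, chosen after seeing the data, library totals only and 1 further pair of libraries left out.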

Additional observations from a re-analysis of the deposited data

Results flagged for a closer look

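The results here are heat effects that differed between polysome RNA and total RNA by the interaction test of edgeR, adjusted over all 34325 genes tested, with the difference of the log2 changes and its standard error. No explanation is weighed for them. Of the 118 genes 8.47% were higher and 6.78% lower by this test, against 10.2% and 8.42% of all genes tested. Such calls were thus no more frequent among these genes than in the background.

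Summed over copies, S11 was the only one of the 23 proteins, at -1.76 ± 0.29 (adjusted p = 0.0012). Of its genes, Niben101Scf05857g01001.1 stood at -2.35 ± 0.35 (adjusted p = 0.00071). The other lower genes were the S28 gene Niben101Scf07137g00005.1 at -1.21 ± 0.20 (adjusted p = 0.0011), the SA gene Niben101Scf02353g02004.1 at -1.08 ± 0.25 (adjusted p = 0.0084) and the S13 genes Niben101Scf12414g01019.1 at -0.97 ± 0.29 (adjusted p = 0.032) and Niben101Scf05317g00004.1 at -0.78 ± 0.23 (adjusted p = 0.028). The S8 genes Niben101Scf04444g01004.1 at -0.77 ± 0.25 (adjusted p = 0.045) and Niben101Scf01752g10011.1 at -0.77 ± 0.24 (adjusted p = 0.04) and the S7 gene Niben101Scf05545g00003.1 at -0.69 ± 0.23 (adjusted p = 0.046) complete the 8.

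The 10 higher genes were led by the S6 gene Niben101Ctg12179g00003.1 at 2.72 ± 0.59 (adjusted p = 0.0061) and the S4 gene Niben101Scf17473g00009.1 at 2.38 ± 0.39 (adjusted p = 0.0011). The S17 gene Niben101Scf01834g04007.1 stood at 1.17 ± 0.34 (adjusted p = 0.027) and the S3a gene Niben101Scf05084g00006.1 at 1.02 ± 0.20 (adjusted p = 0.0032). The S8 genes Niben101Scf02756g00005.1 and Niben101Scf07428g01005.1 stood at 1.02 ± 0.23 (adjusted p = 0.0075) and 0.99 ± 0.23 (adjusted p = 0.0078). The SA genes Niben101Scf00338g08013.1 and Niben101Scf06825g03009.1 stood at 0.96 ± 0.26 (adjusted p = 0.02) and 0.77 ± 0.23 (adjusted p = 0.027). The S7 gene Niben101Scf04640g04002.1 stood at 0.71 ± 0.21 (adjusted p = 0.03) and the S26 gene Niben101Scf02316g00021.1 at 0.66 ± 0.21 (adjusted p = 0.041). Without mock total libraries 6 and 7, which hold the high plastid-genome-type levels, 3 genes were higher and 5 lower.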

How the results depend on the processing

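Directions of the median and most calls were kept under RLE, DESeq2, limma-voom, 1 subtracted from every count and a fit of the compared libraries alone. Named calls lost there were S30 in total RNA (RLE and DESeq2, adjusted p = 0.069 and 0.062) and SA in polysome RNA (compared libraries alone, 0.094). The call of S25 in total RNA was also lost with RLE and with DESeq2. S23 in polysome RNA was lost with 1 subtracted (0.058) and the compared libraries alone (0.08). The S27 gene Niben101Scf10785g01015.1 in polysome RNA was lost in all but the fit with 1 subtracted. What follows are counts and medians that moved and values that changed sign, and not every call lost under other settings is listed. The cause of these changes was not tested. Depth limits genes with a mean below 1 CPM and the 23 genes not tested.

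In total RNA, the count of proteins that fell was 3 with RLE, no filter, DESeq2 or without mock polysome library 2 and mock total library 7. S26, S24 and S27 kept their calls in these fits, and those of S30 and S25 were lost. With a mean of at least 5 CPM, 1 gene and 0 proteins rose and 12 proteins fell. Without mock total libraries 6 and 7, 4 genes rose and 6 fell, 0 proteins changed, and Niben101Scf02626g00011.1 stood at 0.070. It stood at 0.064 without mock polysome library 2 and mock total library 7. With library totals only, 2 genes rose, 60 fell, 0 proteins rose and 13 fell. With 1 library left out, 2 to 9 genes rose, 15 to 40 fell, 0 to 1 proteins rose, 2 to 7 fell, and Niben101Scf02626g00011.1 ranged over -0.34 to 0.057.

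In polysome RNA, with a mean of at least 5 CPM 7 genes and 2 proteins rose, and S4 stood at -0.18. With the compared libraries alone 2 proteins rose, and S4 stood at -6e-04. Niben101Scf01998g00005.1 stood at 0.14 with limma-voom. With library totals only 3 genes rose and 72 fell, the median was -0.76, 0 proteins rose and 17 fell, SA stood at -0.089 and S4 at -0.49. Without mock polysome library 2 and mock total library 7, 23 genes rose, and S10 stood at 0.13. With 1 library left out 2 to 5 proteins rose, S4 ranged over -0.14 to 0.15, S10 over -0.21 to 0.13 and Niben101Scf01998g00005.1 over -0.35 to 0.56.

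For the difference between the fractions' heat effects, the median was -0.032 with no filter, -0.10 without mock total libraries 6 and 7 (3 genes higher, 5 lower) and -0.22 with library totals only (3 higher). The count of proteins that were higher was 1 with a mean of at least 5 CPM, DESeq2 or limma-voom, and 2 without mock polysome library 2 and mock total library 7. With 1 library left out, 5 to 19 genes were higher, 4 to 13 lower, the median was -0.10 to 0.17, 0 to 3 proteins were higher and 1 to 2 lower.

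For polysome against total RNA, library totals only gave 15 higher and 30 lower genes in heat, a median of -0.11, and 3 higher and 6 lower proteins, with Niben101Scf11383g00015.1 at -0.18, Niben101Scf01818g07004.1 at -0.20, Niben101Scf01998g00005.1 at -0.41 and S24 at -0.065. In mock leaves it gave 26 and 29 genes, a median of 0.13, and 4 and 6 proteins. In mock leaves 1 protein was lower with a mean of at least 5 CPM or without mock polysome library 2 and mock total library 7, and without mock total libraries 6 and 7 it was 0, with 3 lower genes. With 1 library left out 4 to 8 genes were lower in heat, and in mock leaves 6 to 13 genes and 0 to 2 proteins were lower with a median of 0.61 to 1.02.

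For the mean heat effect, 3 genes and 1 protein rose with a mean of at least 5 CPM, 37 genes fell without mock total libraries 6 and 7, and 2 genes and 0 proteins rose with library totals only (median -0.70). Without mock polysome library 2 and mock total library 7, 4 proteins rose, and with 1 library left out 2 to 4. With the title number as a replicate block, which could be fitted for this comparison alone, 10 genes rose and 57 fell, with a median of -0.34, 2 proteins rose and 12 fell, and no direction changed. No paired analysis was possible for the comparisons of 2 groups because those groups share no number, nor for the difference between the heat effects because it sets the libraries numbered 5 to 7 against those numbered 2 to 4.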
